A study of Homo with 4 samples.

Results

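GRB2 is the adaptor that couples activated receptor tyrosine kinases to RAS. It was examined here together with 8 genes that act around it: the receptor EGFR, the adaptors SHC1 and GAB1, the phosphatase PTPN11, the exchange factors SOS1 and SOS2, and the GTPases NRAS and HRAS. These 9 genes were taken out of 20263 genes in the deposited table. GRB2 was chosen from this comparison because its level was lower in shIGF2BP3 cells, so its values are given as a description with no test. The other 8 were chosen for their place in the pathway.

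RNA was sequenced from H1299 cells, an established line from a human non-small cell lung cancer, grown in medium with fetal bovine serum. All 4 libraries came from cells infected with lentivirus that delivered a short-hairpin RNA. The shCtrl group (n = 2, genotype labelled WT) carried a control hairpin, and the shIGF2BP3 group (n = 2, labelled as IGF2BP3 knockdown) carried a hairpin against IGF2BP3, an RNA-binding protein that acts on target mRNAs. The labels call the libraries biological replicates, but whether the shIGF2BP3 libraries carry 1 hairpin or different ones is not stated, so their spread may include a difference between hairpins.

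When a growth factor binds its receptor, the receptor phosphorylates its own tail on tyrosine. The SH2 domain of GRB2 binds such phosphotyrosines, either on the receptor or on SHC1, while its SH3 domains hold SOS1 or SOS2 and GAB1. SOS proteins load RAS with GTP, and RAS then activates RAF, MEK and ERK. PTPN11, which encodes the phosphatase SHP2, binds GAB1 and sustains this signal. In many lung cancers this route drives growth. Its activity in these H1299 cells, and any mutations they carry in its genes, were not examined here.

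Total estimated counts ran from 29709686 to 34817513 per library, and mitochondrially encoded genes took 9.11% to 17.02% of them. Levels are given as CPM, the count scaled to the size of the library after TMM normalization, or, for comparisons between genes, as FPKM, which also divides by transcript length. The targeted gene IGF2BP3 was at 41.1 and 32.9 CPM in shCtrl and 26.4 and 24.8 CPM in shIGF2BP3. Both shIGF2BP3 libraries lay below both controls. Its log2 fold change was -0.53 (SE 0.17), so 69.1% of the control mRNA was left, a fold of 1.45. The unadjusted p was 0.0244 by edgeR. The adjusted p was 0.472, above the threshold of 0.05 that no gene tested passed in edgeR. The study reports that RT-qPCR and immunoblotting showed the knockdown in its H1299 cells. Unless another test or setting is named, the adjusted p values given here and below come from the quasi-likelihood test of edgeR, adjusted over all genes by Benjamini-Hochberg. The cells are labelled epithelial. KRT8 and KRT18, keratins of simple epithelia, were at 698 to 1398 CPM. The mesenchymal filament gene VIM was at 4337 to 7098 CPM, whereas EPCAM, CDH1, KRT19 and the lung lineage factor NKX2-1 were at or below 0.354 CPM in every library.

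GRB2 (ENSG00000177885) lies on the minus strand of chromosome 17, from 75318076 to 75405709 in GRCh38, and no other gene of the table overlaps it. It received 4402 and 3119 counts in the shCtrl libraries, and 857 and 499 counts in the shIGF2BP3 libraries. Scaled to library size, GRB2 was at 117 and 92.0 CPM in shCtrl and at 24.8 and 18.1 CPM in shIGF2BP3. Both shIGF2BP3 libraries lay far below both shCtrl libraries. The group means were 104.5 ± 17.7 CPM and 21.5 ± 4.75 CPM (SD, n = 2 each), which left 20.55% of the control level. The log2 fold change was -2.28 (SE 0.22), a 4.87-fold lower level. In these bulk libraries a smaller number of cells that express a gene cannot be told apart from less RNA per cell.

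Ordered from the lowest log2 fold change, GRB2 ranked number 31 of the 13379 genes tested. Among the 1686 genes that were at least as abundant in shCtrl, 1 had a lower log2 fold change. GRB2 was selected for its lower level in this contrast, so both places are a description. The share of mitochondrial counts overlapped between the groups, at 9.11% and 13.43% in shCtrl and 11.42% and 17.02% in shIGF2BP3. Its part in the GRB2 level was not tested. Whichever library was left out, the GRB2 log2 fold change stayed between -2.52 and -2.07.

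The 8 annotated transcripts of GRB2 did not all follow the gene total. ENST00000316804, which spans nearly the whole locus, carried most of the signal, with 31.7 and 22.5 FPKM in shCtrl. In shIGF2BP3 it was at 5.12 and 2.90 FPKM, a 6.76-fold difference between the group means. Its counts were 4225 and 3001 against 662 and 327. This transcript made up 94.98% and 95.46% of GRB2 FPKM in shCtrl, and 72.62% and 56.68% in shIGF2BP3.

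The remaining 7 transcripts together were not lower. They summed to 177 and 118 counts in shCtrl and to 195 and 172 counts in shIGF2BP3, or 1.68 and 1.07 FPKM against 1.93 and 2.22 FPKM. In FPKM both shIGF2BP3 libraries lay above both shCtrl libraries, while the raw counts overlapped. ENST00000316615 accounted for most of this, with 29 and 25 counts in shCtrl and 108 and 75 counts in shIGF2BP3. It held 0.65% and 0.80% of GRB2 FPKM in shCtrl and 12.0% and 13.3% in shIGF2BP3, and its levels did not overlap between the groups.

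Another transcript, ENST00000392564, had 136 and 84 counts in shCtrl and 69 and 67 in shIGF2BP3. Its FPKM was 1.04 and 0.636 against 0.538 and 0.601, so the knockdown libraries were lower with a small gap. ENST00000578961 had between 6 and 14 counts in each library, and its groups overlapped. These transcripts overlap along the locus, so their counts are estimates whose error is not in the file.

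**Figure D1:**
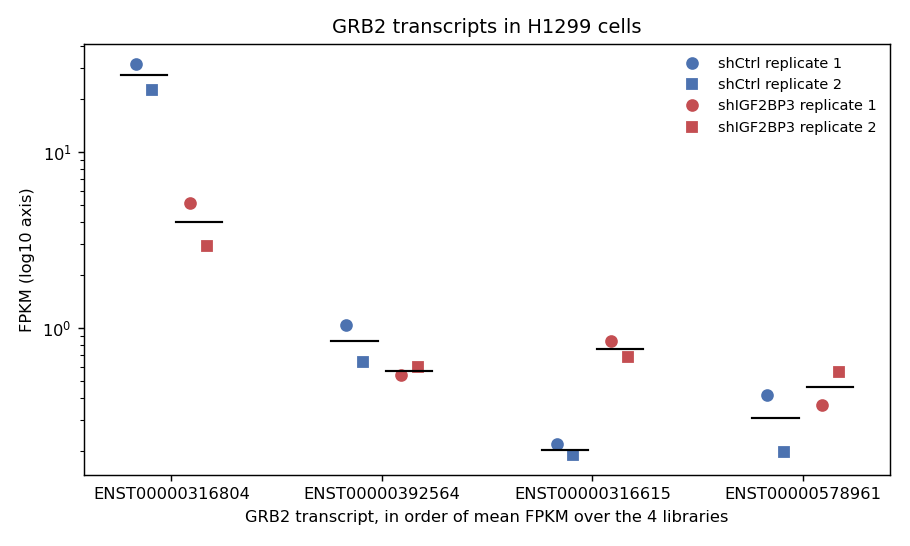
FPKM on a log10 axis for the 4 GRB2 transcripts that held at least 1% of the gene's mean FPKM, with 1 point per library and black lines at group means (n = 2). ENST00000316804 was at 31.7 and 22.5 FPKM in shCtrl and 5.12 and 2.90 FPKM in shIGF2BP3, whereas ENST00000316615 was higher in both shIGF2BP3 libraries.

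The lower level of GRB2 moved its place among the 9 genes. In shCtrl the order by mean FPKM was HRAS (57.0 ± 4.30, SD, n = 2), SHC1 (53.7 ± 1.71), GRB2 (28.5 ± 6.90), NRAS (18.5 ± 4.79), PTPN11 (17.9 ± 3.93), EGFR (5.46 ± 0.305), SOS1 (3.86 ± 0.742), SOS2 (2.22 ± 0.705) and GAB1 (0.601 ± 0.144). HRAS and SHC1 overlapped over their libraries, as did NRAS and PTPN11, and the other neighbours in that order did not. In shIGF2BP3, GRB2 was at 6.08 ± 1.36 FPKM, below PTPN11 at 21.9 ± 1.41 and NRAS at 21.5 ± 1.2. Its libraries there, at 7.05 and 5.12 FPKM, lay on either side of EGFR, at 6.75 and 6.41 FPKM, and above SOS1, at 3.92 and 3.46 FPKM.

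**Figure D2:**
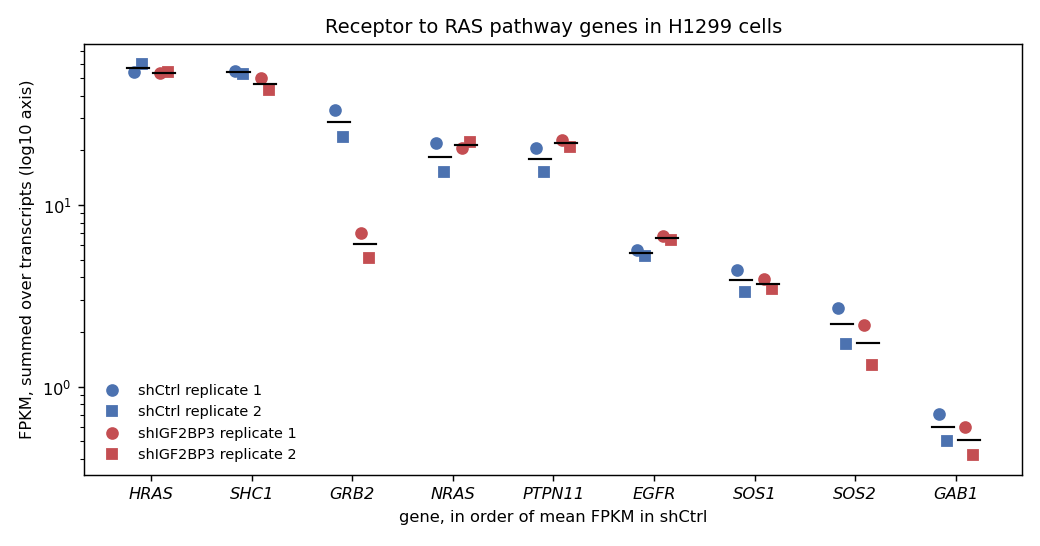
FPKM summed over transcripts, on a log10 axis, for the 9 genes in order of their mean in shCtrl, with 1 point per library and black lines at group means (n = 2). GRB2 was at 33.4 and 23.6 FPKM in shCtrl and 7.05 and 5.12 FPKM in shIGF2BP3. For each of the other 8 genes the group means lay closer together on this axis than those of GRB2. EGFR and PTPN11 were higher, and SHC1 was lower, in both shIGF2BP3 libraries.

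No gene of the whole table passed an adjusted p under 0.05 in edgeR (0 of 13379, or 0%), whereas the unadjusted p was 0.05 or lower for 10.5% of genes. DESeq2 gave 155 genes at the adjusted threshold with a fold of 1.5 or more. By the thresholds of the study, a 1.5-fold difference and an unadjusted p no larger than 0.05, 2.54% of genes were higher (340) and 2.78% were lower (372) in shIGF2BP3. At these thresholds the study itself reports fewer higher genes and more lower genes than these counts. With library totals in place of TMM scaling, 195 were higher and 485 lower. The 8 genes other than GRB2 were called in neither direction, and by the unadjusted p alone EGFR passed. GRB2 was selected on this contrast and is left out of these counts. The CPM groups did not overlap for 4 of the 9: EGFR and PTPN11 were higher, and GRB2 and SHC1 were lower, in both shIGF2BP3 libraries. Among all genes tested 23.3% did not overlap with shIGF2BP3 higher and 23.5% with shIGF2BP3 lower, so 1 of 8 lower and 2 of 8 higher among the genes other than GRB2 lies near the background.

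EGFR, the receptor for epidermal growth factor, is on chromosome 7 and was at 60.3 and 54.1 CPM in shCtrl. In shIGF2BP3 it was at 75.8 and 78.2 CPM. Both knockdown libraries lay above both controls, with a log2 fold change of 0.43 (SE 0.13), an unadjusted p of 0.0207 and an adjusted p of 0.472 in edgeR. Its fold of 1.35 was under 1.5, and with library totals the unadjusted p of this edgeR test was 0.103. ENST00000275493 carried 83.98% to 99.16% of EGFR FPKM.

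SHC1 encodes an adaptor that receptors phosphorylate and that then recruits GRB2. It is on chromosome 1 and was at 181 and 194 CPM in shCtrl against 179 and 168 CPM in shIGF2BP3, so the groups were separated by a small gap. The log2 fold change was -0.11 (SE 0.13) with an adjusted p of 0.742 by edgeR. ENST00000368453, ENST00000368445 and ENST00000368450 shared most of SHC1, each with 21.58% to 41.42% of its FPKM depending on the library.

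GAB1, a docking protein that GRB2 brings to the receptor, was the least abundant of the 9 genes. It is on chromosome 4 and was at 5.85 and 4.46 CPM in shCtrl and 5.50 and 4.21 CPM in shIGF2BP3. The groups overlapped, and the log2 fold change was -0.08 (SE 0.26, adjusted p = 0.912 by edgeR). ENST00000262995 held at least 87.99% of its FPKM.

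PTPN11 on chromosome 12 was at 134 and 108 CPM in shCtrl and at 156 and 157 CPM in shIGF2BP3. Both knockdown libraries were higher, with nearly equal values, while the controls differed from each other. The log2 fold change was 0.37 (SE 0.16), the unadjusted p was 0.0591 and the adjusted p was 0.480 by edgeR. ENST00000351677 held 95.84% to 97.54% of its FPKM.

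SOS1, on chromosome 2, and SOS2, on chromosome 14, encode the exchange factors that GRB2 carries to the membrane. SOS1 was at 31.9 and 23.7 CPM in shCtrl and at 28.1 and 26.1 CPM in shIGF2BP3, where both libraries fell within the range of the controls. SOS2 was at 14.8 and 8.82 CPM in shCtrl and at 12.9 and 8.50 CPM in shIGF2BP3, and the replicates of each group differed by more than the groups did. The log2 fold changes were -0.04 (SE 0.20, adjusted p = 0.956) and -0.14 (SE 0.33, adjusted p = 0.884) by edgeR, and both turned positive without shCtrl replicate 1 and without shIGF2BP3 replicate 2.

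The assignment of SOS1 reads to transcripts differed in a single library. ENST00000402219 had 905 counts in shCtrl replicate 1 and at most 1 count in the other 3 libraries, whereas ENST00000426016 had 1 count there and 467, 633 and 436 counts elsewhere. ENST00000395038 was similar in all libraries, with 283 to 337 counts. In SOS2, ENST00000216373 held 60.58% to 89.47% of the FPKM, and ENST00000555794 had 42 and 64 counts in shCtrl against 21 and 12 in shIGF2BP3.

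NRAS and HRAS encode the GTPases at the end of this step. NRAS, on chromosome 1 and with 1 transcript in the table, was at 106 and 81.2 CPM in shCtrl and 106 and 125 CPM in shIGF2BP3. HRAS, on chromosome 11, was at 56.4 and 70.0 CPM in shCtrl and 59.0 and 66.4 CPM in shIGF2BP3. The groups overlapped for both genes. The log2 fold change was 0.30 (SE 0.19, adjusted p = 0.559) for NRAS and -0.01 (SE 0.16, adjusted p = 0.985) for HRAS by edgeR. Summed, the 2 genes gave 75.8 and 75.1 FPKM in shCtrl and 73.6 and 76.4 FPKM in shIGF2BP3. ENST00000311189 held 60.31% to 69.22% of HRAS FPKM and ENST00000397596 held 12.16% to 17.71%. Of the 47 transcripts of the 8 genes other than GRB2, 22 were tested and 0 were called in either direction by edgeR, with 0 at an unadjusted p of at most 0.05. Over all 37927 transcripts tested 2.5% were higher and 3.79% were lower by the same thresholds. With limma on log2(FPKM + 1), 1 of the 14 tested was lower, beside 1143 of all 22213 transcripts tested in that setting.

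The ratio of GRB2 to its partners shows the same data within each library, where scaling between libraries plays no part. In shCtrl, GRB2 FPKM was 7.61 and 7.08 times that of SOS1. In shIGF2BP3 the ratio was 1.80 and 1.48. Against EGFR it was 5.88 and 4.50 in shCtrl and 1.04 and 0.799 in shIGF2BP3, so GRB2 and EGFR mRNA were about level there. Against SHC1, which was the more abundant in all 4 libraries, it was 0.608 and 0.450 in shCtrl and 0.140 and 0.119 in shIGF2BP3. None of these ratios overlapped between the groups. They follow from the GRB2 level on which the gene was selected, and are a description.

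**Figure D3:**
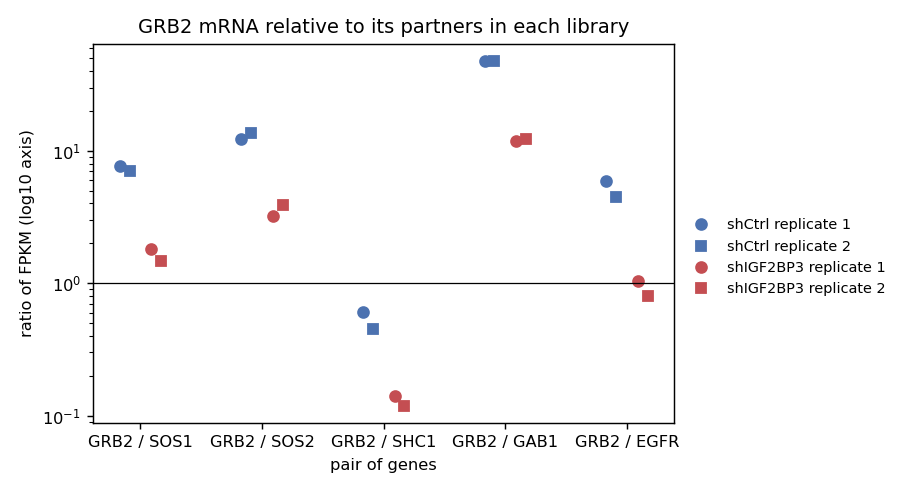
Ratio of GRB2 FPKM to the FPKM of SOS1, SOS2, SHC1, GAB1 and EGFR on a log10 axis, with 1 point per library and a line at a ratio of 1. All 5 ratios were lower in both shIGF2BP3 libraries, for example 1.80 and 1.48 against 7.61 and 7.08 for SOS1.

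To place the 9 genes in their route, 115 genes were listed in 9 groups from ligands to ERK outputs. Of these, 114 could be matched to a gene by position, and 92 passed the filter on low counts. The ligand gene IGF2 had no match and was not analysed. Leaving aside GRB2, which was selected on this contrast, 3 of 91 were higher and 6 were lower by the fold and unadjusted p thresholds, against 2.54% and 2.78% of all genes. Of the 91, 13 had an unadjusted p of at most 0.05 and 0 passed an adjusted p under 0.05, with 0.346 as the smallest adjusted p by edgeR. The median log2 fold change of these 91 was -0.01, beside 0.00 (-0.00191) for all genes tested.

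Of 17 ligands, 16 were matched and 10 were tested, with 1 higher, 2 lower and a median log2 fold change of -0.16. FGF2, a fibroblast growth factor, was at 18.1 and 16.1 CPM in shCtrl and 24.0 and 28.0 CPM in shIGF2BP3 (log2 fold change 0.60, SE 0.17, adjusted p = 0.472 by edgeR). GAS6, a ligand of AXL, was at 15.2 and 15.6 CPM against 10.7 and 7.88 CPM (-0.73, SE 0.21, adjusted p = 0.472). Neither group pair overlapped, though FGF2 was under a fold of 1.5 with library totals and GAS6 lost its call without shCtrl replicate 1, without shCtrl replicate 2 or without shIGF2BP3 replicate 2. FGF2 shares its locus with a gene on the opposite strand, and whether the counting used strand is not given in the sources used here. BTC, an EGFR ligand, had 14 and 20 counts against 4 and 4 (log2 fold change -1.86, SE 0.61, adjusted p = 0.472), and lost its call whichever library was left out. Of the ligands of EGFR, TGFA was at 2.80 to 4.44 FPKM and HBEGF at 2.44 to 2.93 FPKM, and EGF did not exceed 0.0205 FPKM. EREG, EPGN, HGF and IGF1 had 0 counts in all 4 libraries, where 3 counts, the limit that a count of 0 allows, correspond to 0.0798 to 0.109 CPM (counting error only).

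Of 18 receptor tyrosine kinases 13 were tested, with 0 higher, 2 lower and a median log2 fold change of -0.03. The lower ones were DDR1, a collagen receptor, and FGFR3. DDR1 was at 26.2 and 43.7 CPM in shCtrl and 19.8 and 13.4 CPM in shIGF2BP3, without overlap (log2 fold change -1.07, SE 0.32, adjusted p = 0.472 by edgeR), and it lost its call without shCtrl replicate 2 or without shIGF2BP3 replicate 2. FGFR3 was at 2.90 and 2.86 CPM against 1.88 and 1.92 CPM (-0.60, SE 0.24, adjusted p = 0.472), and lost its call whichever library was left out. By FPKM the leading receptors were AXL, at 153 to 198, and EPHA2, at 58.2 to 73.5, whereas MET was at 11.7 to 15.9 and EGFR at 5.24 to 6.75. AXL and EPHA2 had log2 fold changes of -0.07 (SE 0.13, adjusted p = 0.859) and 0.02 (SE 0.14, adjusted p = 0.968) by edgeR.

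Among 23 adaptors and scaffolds 18 were tested. Apart from GRB2, which was selected for its lower level here, 0 were called in either direction by edgeR, and the median log2 fold change with GRB2 included was -0.05. The closest relatives of GRB2 gave almost no signal: GRAP had 0 counts in all libraries and GRAP2 did not exceed 0.295 CPM. CRK, another SH2 and SH3 adaptor, was at 67.5 and 66.7 CPM in shCtrl and 87.1 and 109 CPM in shIGF2BP3, a log2 fold change of 0.55 (SE 0.16, unadjusted p = 0.0156 and adjusted p = 0.472 by edgeR) that is under a fold of 1.5. FRS2, which links fibroblast growth factor receptors to GRB2, stood at 23.5 CPM in shIGF2BP3 replicate 1 and at 2.25 to 3.99 CPM in the other 3 libraries, so its log2 fold change of 1.82 (SE 0.98, adjusted p = 0.523) rests on that library. CRK and FRS2 were singled out after their values were seen.

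Of 15 inhibitors of receptors and adaptors 13 were tested, with 1 higher, 0 lower and a median log2 fold change of 0.24. The higher one was CBLB, a ubiquitin ligase that acts on activated receptors, at 3.35 and 3.48 CPM in shCtrl and 5.94 and 5.34 CPM in shIGF2BP3 (log2 fold change 0.72, SE 0.21, adjusted p = 0.472 by edgeR). It lost its call without replicate 1 of either group. In the authors' FPKM the CBLB groups overlapped, at 0.977 and 1.18 against 1.15 and 1.79. SPRY4 and SPRED2, which restrain RAS signalling, had log2 fold changes of 0.24 and 0.37 and did not pass either threshold (adjusted p = 0.526 and 0.480 by edgeR). SPRY1 and SPRED1 of the same families were also higher, at 0.48 and 0.27 (adjusted p = 0.539 and 0.612 by edgeR). The CPM groups of SPRY1 and SPRED1 did not overlap, whereas their FPKM groups did. The relatives SPRY2 and SPRED3 went the other way, at -0.19 and -0.36 (adjusted p = 0.668 and 0.854 by edgeR). Of the 13 tested in this list, 6 were higher and 2 were lower without overlap of the CPM groups. Among all genes tested these shares were 23.3% and 23.5%. DOK1 of this list was lower without overlap of the CPM groups, at -0.49 (SE 0.17). Its unadjusted p was 0.0332 and its adjusted p 0.472 by edgeR, and its fold of 1.41 was under 1.5.

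No call was made among the 6 exchange factors tested of 8, the 7 RAS GTPase activating proteins tested of 8, or the 6 RAS family GTPases listed, whose median log2 fold changes were -0.09, 0.17 and 0.13 (0 at an unadjusted p of at most 0.05 in each by edgeR). NF1, a GTPase activating protein, was at 30.6 and 9.71 CPM in shCtrl and 11.3 and 17.9 CPM in shIGF2BP3, a spread within shCtrl that covered both knockdown libraries.

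All 9 RAF, MEK and ERK genes listed were tested, with 0 higher, 1 lower and a median log2 fold change of 0.05. ARAF, a RAF kinase, was at 25.3 and 27.4 CPM in shCtrl and 18.5 and 16.2 CPM in shIGF2BP3, without overlap (log2 fold change -0.60, SE 0.17, adjusted p = 0.472 by edgeR). It lost its call with limma on FPKM and without shCtrl replicate 2 or shIGF2BP3 replicate 2, and a gene on the opposite strand overlaps it. MAP2K1 and MAP2K2, which encode the MEK kinases, had log2 fold changes of -0.21 and 0.05. MAPK3, which encodes ERK1, was at 33.6 and 41.6 CPM against 30.3 and 21.9 CPM, with a log2 fold change of -0.53 (SE 0.22, adjusted p = 0.480 by edgeR).

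Of 13 genes whose mRNA is known to respond to ERK activity 12 were tested, with a median log2 fold change of -0.03, and they did not move one way. DUSP6, a phosphatase that acts on ERK, was at 27.7 and 28.7 CPM in shCtrl and at 51.9 and 75.2 CPM in shIGF2BP3. Its log2 fold change was 1.17 (SE 0.21) with an unadjusted p of 0.00194 and an adjusted p of 0.346 by edgeR. It kept its call at the fold and unadjusted p thresholds in all 13 other settings, in which its adjusted p ran from 0.000404 to 0.659. FOSL1, an AP-1 transcription factor, was at 516 and 690 CPM in shCtrl and at 315 and 377 CPM in shIGF2BP3, also without overlap. Its log2 fold change was -0.80 (SE 0.19, adjusted p = 0.472 by edgeR), and -0.58, just under a fold of 1.5, without shCtrl replicate 2. With DESeq2 the adjusted p was 0.000404 for DUSP6 and 0.0227 for FOSL1, under 0.05 unlike in edgeR. DUSP5, a nuclear ERK phosphatase, was at 60.1 and 60.6 CPM against 83.2 and 85.9 CPM, a log2 fold change of 0.49 (SE 0.13) under that fold. Its groups did not overlap, and its unadjusted p was 0.00955 and its adjusted p 0.472 by edgeR. Of the 12 genes tested in this list, 3 had an unadjusted p of at most 0.05 by edgeR, beside 10.5% of all genes tested. The early gene EGR1 was at 15.7 to 17.4 CPM in all libraries, and CCND1, ETV4 and ETV5 had log2 fold changes of -0.08, -0.15 and -0.24 with adjusted p values of 0.835, 0.732 and 0.531 by edgeR.

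**Figure D4:**
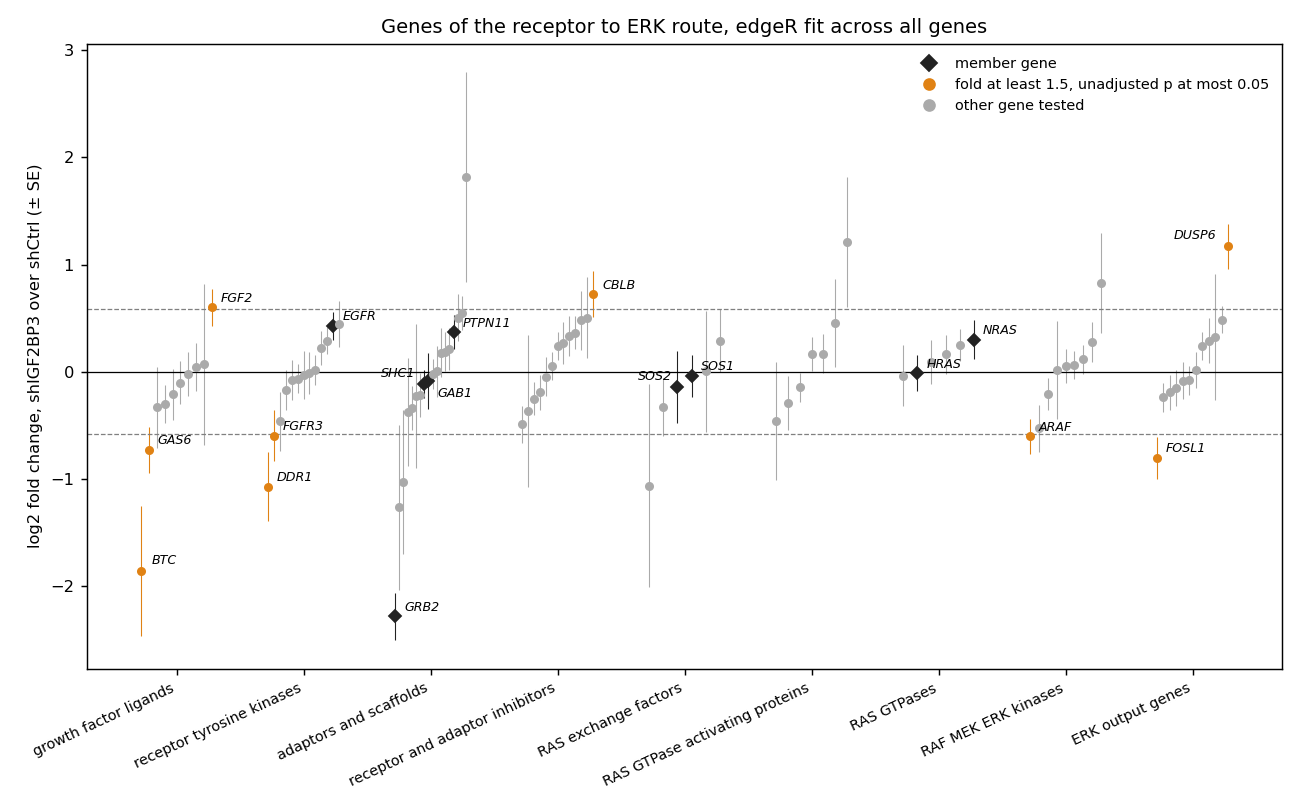
Log2 fold change of shIGF2BP3 over shCtrl (n = 2 each) with standard errors for the tested genes of the 9 groups, sorted within each group (SPRY2 and SPRY4 stand in 2 groups), with dashed lines at a fold of 1.5. GRB2 at -2.28 is the lowest point, the other 8 genes lie between -0.14 and 0.43, and 9 genes outside these pass the fold and unadjusted p thresholds, including DUSP6 at 1.17 and FOSL1 at -0.80.

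The genes whose profile over the 4 libraries was nearest to that of GRB2 were UMAD1, MYLIP, THRA, EIF2S3B and ELK3, by the Euclidean distance between centred log2 CPM profiles (0.229, 0.388, 0.411, 0.448 and 0.492). With only 4 libraries in 2 groups this measure mostly finds genes with a fold change like that of GRB2. ELK3, an ETS family transcription factor, was the most similar in level, at 96.1 and 71.0 CPM in shCtrl and 28.5 and 19.6 CPM in shIGF2BP3. UMAD1 was at 13.5 and 11.1 CPM against 3.10 and 2.54 CPM, and MYLIP, a ubiquitin ligase, was at 11.8 and 11.3 CPM against 3.62 and 2.11 CPM. THRA, a thyroid hormone receptor, was at 13.2 and 15.4 CPM against 3.65 and 2.51 CPM, while EIF2S3B had at most 32 counts in any library. UMAD1 and THRA overlap genes on the opposite strand. All 5 were selected by their likeness to GRB2 in this contrast, so no test is given.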

How the data were processed

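RNA-seq libraries of H1299 cells, shCtrl (n = 2) and shIGF2BP3 (n = 2), were grouped by the sample labels. In the deposited count table the shIGF2BP3 columns bear the numbers 2 and 3. The submitters' processing notes name CASAVA, FastQC, Trimmomatic, HISAT2, bedtools and GRCh38. The tool that counted transcripts is not given in the sources used here. The authors deposited estimated counts per transcript, rounded to whole numbers and not normalized, and FPKM values per transcript, scaled by transcript length and library size.

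Both were summed from 95139 transcripts to 20263 genes. Symbols came from RefSeq genes of GRCh38.p14 where each gene was the other's best overlap (at least 0.5 of the joint length, and a lead of 0.2), which named 18218 genes. Genes (13379) and transcripts (37927) that passed filterByExpr (minimum count 10, minimum total 15) were fitted with edgeR 4.0.16 in R 4.3.3 (TMM, quasi-likelihood test, prior count 0.125), and p-values were adjusted by Benjamini-Hochberg over all features. The biological coefficient of variation was 22.8%. Within each group the libraries differed beyond sampling noise (chi-square per degree of freedom 79.7 and 80.2).

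Results were recomputed with DESeq2 1.42.0, library totals or RLE factors, other low-count filters, limma 3.58.1 on log2(FPKM + 1) and log2(FPKM + 0.1) after a filter that kept an FPKM of 1 or more in 2 libraries, the first of these also unfiltered, the replicate block and each library left out. The genes and lists were chosen with earlier results of these data known. Beyond the 9 genes, the text names list genes at the fold and unadjusted p thresholds (up to 4 per list) and the 5 profiles nearest to GRB2. Genes named beside these were chosen after their values were seen. The steps were tested on simulated data. With 2 libraries per group, a gene or transcript that was not called is not shown to be unchanged.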

Additional observations from a re-analysis of the deposited data

How the results depend on the processing

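The GRB2 log2 fold change ran from -2.36 to -2.05 over the 9 other settings and from -2.52 to -2.07 with each library left out. SHC1, PTPN11, EGFR and NRAS kept their sign in all settings run. SOS1 turned positive without shCtrl replicate 1 or shIGF2BP3 replicate 2 (-0.23 to 0.20 over libraries left out), as did SOS2 (-0.47 to 0.28) and GAB1 (-0.28 to 0.13). HRAS did so without shCtrl replicate 2 or shIGF2BP3 replicate 1 (-0.16 to 0.15). A fit that leaves out a library has 1 library in a group, assumed to vary like the other group.

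Counts over all genes depended more on the settings. Against 340 higher genes, library totals gave 195, and limma gave 125 with log2(FPKM + 1), 183 with log2(FPKM + 0.1) and 96 with log2(FPKM + 1) without a filter. Against 372 lower genes, limma without a filter gave 224. Against 0 genes at an adjusted p under 0.05, DESeq2 gave 155, edgeR without a low-count filter gave 17, and limma gave 4 with log2(FPKM + 1) and 6 with log2(FPKM + 0.1). With a library left out, higher genes ran from 213 (without shIGF2BP3 replicate 2) to 680 (without shIGF2BP3 replicate 1), lower genes from 322 to 872, genes at the adjusted threshold from 0 to 84, and lower transcripts from 1130 to 3174, each highest without shIGF2BP3 replicate 1. The cause was not tested.

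No pairing of libraries by number is stated. Over all genes the deviations of libraries with the same number in the labels had a correlation of 0.0218, which does not decide whether they were paired. Pairing by the numbers of the deposited columns was not tried. The replicate block gave 354 higher, 418 lower and 0 adjusted genes, and 917 lower transcripts against 1439. By counts rather than FPKM, ENST00000316804 held 96.1% of GRB2 in shCtrl, against 95.2%, and 71.4% in shIGF2BP3, against 64.7%.

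Of the genes named from the lists, DUSP6 kept its call in all 13 settings and FOSL1 in 12. ARAF lost it in 5, FGF2 in 6, GAS6 in 3, CBLB in 5, DDR1 in 3, BTC in 6 and FGFR3 in 7, none with a change of sign. IGF2BP3 passed the fold and unadjusted p thresholds in 5. With 2 libraries per group, replicate spread limits the precision more than depth, and the lead of single transcripts rests on the authors' assignment of shared reads.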

Other observations

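The genes around GRB2 on chromosome 17 were looked at after the GRB2 values were seen. Of 22 genes within 300 kb, 20 were tested, and their log2 fold changes ran from -0.98 to 0.48 with a median of -0.12. Over all genes tested, 2.54% were higher and 2.78% were lower by the fold and unadjusted p thresholds. Of the 20 near GRB2, 0 were higher and 1 was lower. That gene was MIF4GD, which encodes a MIF4G domain protein, at 14.1 and 15.2 CPM in shCtrl and 7.18 and 7.70 CPM in shIGF2BP3 (log2 fold change -0.98, SE 0.18, adjusted p = 0.373 by edgeR). It lies 46.9 kb from GRB2 and overlaps a gene on the opposite strand. TMEM94, on the other side of GRB2 at 35.5 kb, had a log2 fold change of 0.48 (SE 0.14). SUMO2, an abundant gene of the same stretch that encodes a small ubiquitin-like modifier, was at 337 and 304 CPM in shCtrl and 373 and 436 CPM in shIGF2BP3.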
